A study of Mus musculus with 12 samples.

Results

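The genes described here are the connective tissue and vessel genes of the mouse duodenum: 22 genes of fibroblasts and their matrix and 11 genes of blood and lymphatic endothelium. They were chosen by name, as 33 of the 22905 genes named on the array, and each is represented by its brightest probe. Total RNA of whole duodenum from male mice, 7 weeks old, was hybridised with Cy3 to 1-colour Agilent arrays, 3 arrays for each of 4 groups. The KO IIAEK group holds IAP-KO (Akp3-/-) mice, which lack an intestinal alkaline phosphatase gene, given IIAEK, a peptide of 5 amino acids, at 600 mg per kg body weight and day. The KO vehicle group holds Akp3-/- mice given carboxymethylcellulose sodium salt in solution at 5 g/L. The WT IIAEK and WT vehicle groups hold wild-type mice given the same 2 treatments. All mice were dosed by mouth for 14 days according to the titles, although some source labels give a longer time, and all were fasted for 8 h before the duodenum was taken. The sources used here give neither the way the deletion was made nor the strain, and do not state whether an array holds the RNA of 1 mouse or of several, so p-values measure the spread between these arrays.

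Connective tissue of the gut wall is built by fibroblasts, which secrete fibrillar collagens together with collagen VI, fibrillin and fibulin microfibrils, fibronectin and small proteoglycans. Lysyl oxidases crosslink this matrix, metalloproteinases such as MMP2 cut it, and TIMPs inhibit them. Each villus of the duodenum holds a fibroblast-lined core with a dense net of blood capillaries and a central lymphatic vessel, the lacteal, which carries absorbed fat. Endothelial cells keep their junctions with VE-cadherin and PECAM1 and respond to growth factors through the VEGF and angiopoietin receptors.

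Levels are log2 processed intensities minus the 75th percentile of the same array, so 0 is that percentile and 1 unit is a doubling. A gene was tested if some group had its probe well above background in each of its 3 arrays. Of the 33 genes, 32 passed: all 22 matrix genes and 10 of 11 vessel genes. Flt4, the VEGF receptor of lymphatic endothelium, was well above background on 1 of 12 arrays and was not tested. Prox1 was well above background on 9 arrays, and the other 31 on all 12. The defining markers of fibroblasts and of blood vessel endothelium were thus above background on every array. In whole-tissue RNA, fewer cells of a type and less RNA per cell cannot be told apart. The probe for Akp3 lay at -4.90 to -3.80 on the 6 KO arrays, where it was well above background on 3, and at 1.05 to 2.72 on the 6 WT arrays.

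The arrays came from 2 slides, each scanned at its own time. Slide 2 held 5 arrays: KO IIAEK array 3, KO vehicle arrays 2 and 3, and array 3 of each WT group. Slide 1 held the other 7. The 75th percentile of intensity was 195 to 300.2 on slide 2 and 229.5 to 465 on slide 1. Probes well above background made up 55.9% to 60.6% on slide 2 and 57.6% to 64.0% on slide 1. All 4 groups lie on both slides, so each comparison is also given with the slide as a block and within each slide. Within slide 2, 3 of the groups have 1 array, and within slide 1, 1 group has. The spread of a lone array is then assumed to equal that of the others.

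KO IIAEK array 3 stood apart for these genes. It gave the highest of the 12 levels for 16 of 22 matrix genes and 8 of 10 vessel genes, while it was highest for 19.4% and lowest for 25% of all 26107 features tested. KO IIAEK array 1, of the same group, gave the lowest level for 9 matrix genes and 6 vessel genes, and for 12.8% of all features. The mean level over the 22 matrix genes was 1.17, 1.44 and 2.22 in KO IIAEK. It was 1.36 to 1.52 in KO vehicle, 1.42 to 1.68 in WT IIAEK and 1.37 to 1.49 in WT vehicle. The KO IIAEK group thus held both the highest and the lowest array, and spanned more than the other 9 arrays together. The mean over the 10 vessel genes had the same 2 extremes, -0.50 on array 3 and -1.65 on array 1 of KO IIAEK. Decorin, lumican and biglycan (Dcn, Lum and Bgn), 3 proteoglycans, were instead highest on KO IIAEK array 1.

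Markers of other cell types differed on the same arrays. All 12 smooth muscle markers were tested, none passed the adjusted threshold in any comparison between groups, and their mean level ran from 1.16 to 2.90 in KO IIAEK, 1.64 to 1.86 in KO vehicle, 1.75 to 2.25 in WT IIAEK and 2.04 to 2.13 in WT vehicle. Under vehicle the mean was lower on every KO array than on every WT array. Of all single features 5.87% had that order, but the share among means of several genes was not computed. The mean of the pericyte markers had the same order. KO IIAEK array 3 was highest for 10 of these 12. The 9 enterocyte markers had mean levels of 7.12 to 7.75 in KO IIAEK, 7.37 to 7.64 in KO vehicle, 7.46 to 7.88 in WT IIAEK and 7.29 to 7.66 in WT vehicle, with the lowest on KO IIAEK array 3. The 5 tested of 6 stomach and Brunner gland mucous markers (Muc6 did not pass the filter) averaged 5.91 on that array, against -2.13 and -2.44 on the other KO IIAEK arrays. Their range was -2.11 to 4.62 in KO vehicle, -1.97 to 6.41 in WT IIAEK and 4.64 to 5.005 in WT vehicle. With the smooth muscle mean as a covariate, 9 of the 32 members passed an unadjusted p of 0.05 for KO against WT averaged over the treatments, against 9.4% of all features, and none passed after adjustment. Every WT vehicle array was high in the stomach and Brunner gland markers, while each other group held both high and low arrays. In comparisons with WT vehicle, the groups thus also differed in stomach-type tissue. The KO groups differed in these markers within each slide. On slide 2 the mean was 5.91 on KO IIAEK array 3, against -1.74 and -2.11 on the KO vehicle arrays. On slide 1 it was -2.13 and -2.44 on the KO IIAEK arrays, against 4.62 on the KO vehicle array. A fit with the stomach and pancreas marker means as covariates is given below, but the part of stomach-type tissue alone was not tested.

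**Figure D1:**
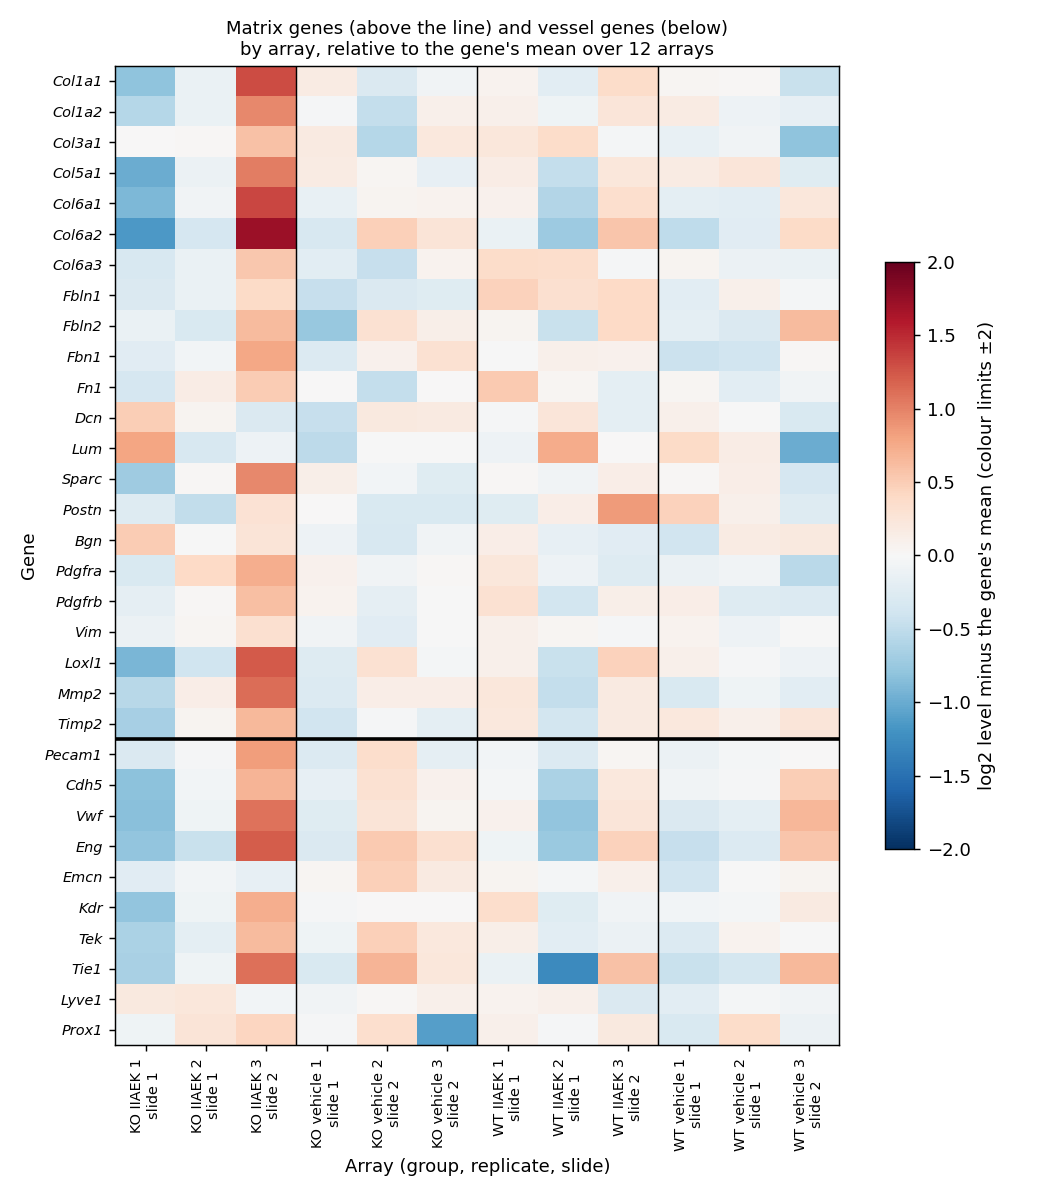
Level of each of the 32 tested genes (down the page) on each of the 12 arrays (across, with group, replicate and slide), as log2 level minus the gene's mean over the 12 arrays, red for above and blue for below. The column of KO IIAEK array 3 is red for most genes, and that of KO IIAEK array 1 is blue for most.

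The comparisons between groups asked whether IIAEK or the loss of Akp3 altered these genes, and comparisons that share a group share its arrays. No matrix or vessel gene passed an adjusted p of 0.05 (limma, Benjamini-Hochberg over 26107 features) in any of the 7 comparisons between groups, and the smallest adjusted p of a member was 0.993. Few features passed anywhere on the array. For IIAEK against vehicle the share of all features called was 0% in KO, 0% in WT, 0% averaged over the genotypes, and 0% for the difference between the genotypes. For KO against WT it was 0.00766% under IIAEK, 0.00766% under vehicle and 0.0192% averaged over the treatments. At an unadjusted p under 0.05, Emcn and Fbln1 were the only members to pass, in 3 and 4 comparisons, and both are described with their roles. The share of all features at that unadjusted threshold was 1.91% for IIAEK in KO, 3.14% in WT, 2.94% averaged and 1.52% for the difference. It was 1.31% for KO against WT under IIAEK, 3.85% under vehicle and 3.03% averaged.

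For IIAEK against vehicle averaged over the genotypes, the 95% interval excluded a 2-fold difference in either direction for 22 of 22 matrix genes and 10 of 10 vessel genes. For KO against WT averaged over the treatments it did so for 21 of 22 and 9 of 10, the exceptions being Col6a2 and Tie1. Within 1 genotype the bound was looser: for IIAEK against vehicle it held for 16 matrix and 6 vessel genes in KO, and for 17 and 6 in WT. The fit used 1 spread per gene, shared by the groups. The SD of the matrix mean was 0.55 in KO IIAEK, 0.08 in KO vehicle, 0.14 in WT IIAEK and 0.06 in WT vehicle. For genes with such unequal spreads, SEs and intervals may be too narrow in KO under IIAEK and too wide in WT.

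The median log2 difference of the 22 matrix genes for IIAEK against vehicle, averaged over the genotypes, was 0.17, with 20 of 22 above 0, against 0.02 and 55.2% over all features. By role, 5 of 7 collagens, all 9 glycoproteins and proteoglycans, all 3 receptor and cytoskeleton genes and all 3 genes of crosslinking and turnover lay above 0. The matrix median was 0.19 in KO and 0.13 in WT, against -0.0032 and 0.03 over all features. Of the 10 vessel genes 3 lay above 0 when averaged, with a median of -0.10, and their medians were -0.06 in KO and -0.03 in WT. These medians depended on slide and array. Averaged over the genotypes, the matrix median was 0.55 within slide 2, 0.06 within slide 1 and 0.20 with the slide as a block, with 21, 12 and 21 of 22 above 0. The vessel median was 0.25 within slide 2, -0.15 within slide 1 and 0.05 with the block, with 8, 4 and 7 of 10 above 0. Without KO IIAEK array 3 the averaged medians were 0.02 for matrix and -0.27 for vessel genes, with 11 of 22 and 2 of 10 above 0. In KO alone they were then -0.11 and -0.46.

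For KO against WT averaged over the treatments, the median log2 difference was 0.01 for matrix genes, with 11 of 22 above 0, and 0.11 for vessel genes, with 8 of 10. Over all features it was 0.01, with 52.3% above 0. With the slide as a block these medians were -0.01 and 0.03. Within slide 2 they were 0.39 and 0.17, and within slide 1 -0.14 and -0.06. The sign of the genotype difference thus turned between the slides for both groups of genes. Without KO IIAEK array 3 the averaged medians were -0.18 and -0.08, with 6 of 22 and 3 of 10 above 0. Under vehicle alone the medians were -0.01 for matrix and 0.07 for vessel genes, and under IIAEK 0.04 and 0.11. The 2 values under vehicle were 0.23 and 0.29 with the smooth muscle mean as a covariate, 0.34 and 0.20 with the stomach and pancreas marker means as covariates, and -0.13 and -0.13 with the slide as a block. No member was called in any of these fits. Without KO IIAEK array 3 the 2 values under IIAEK were -0.27 and -0.23.

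**Figure D2:**
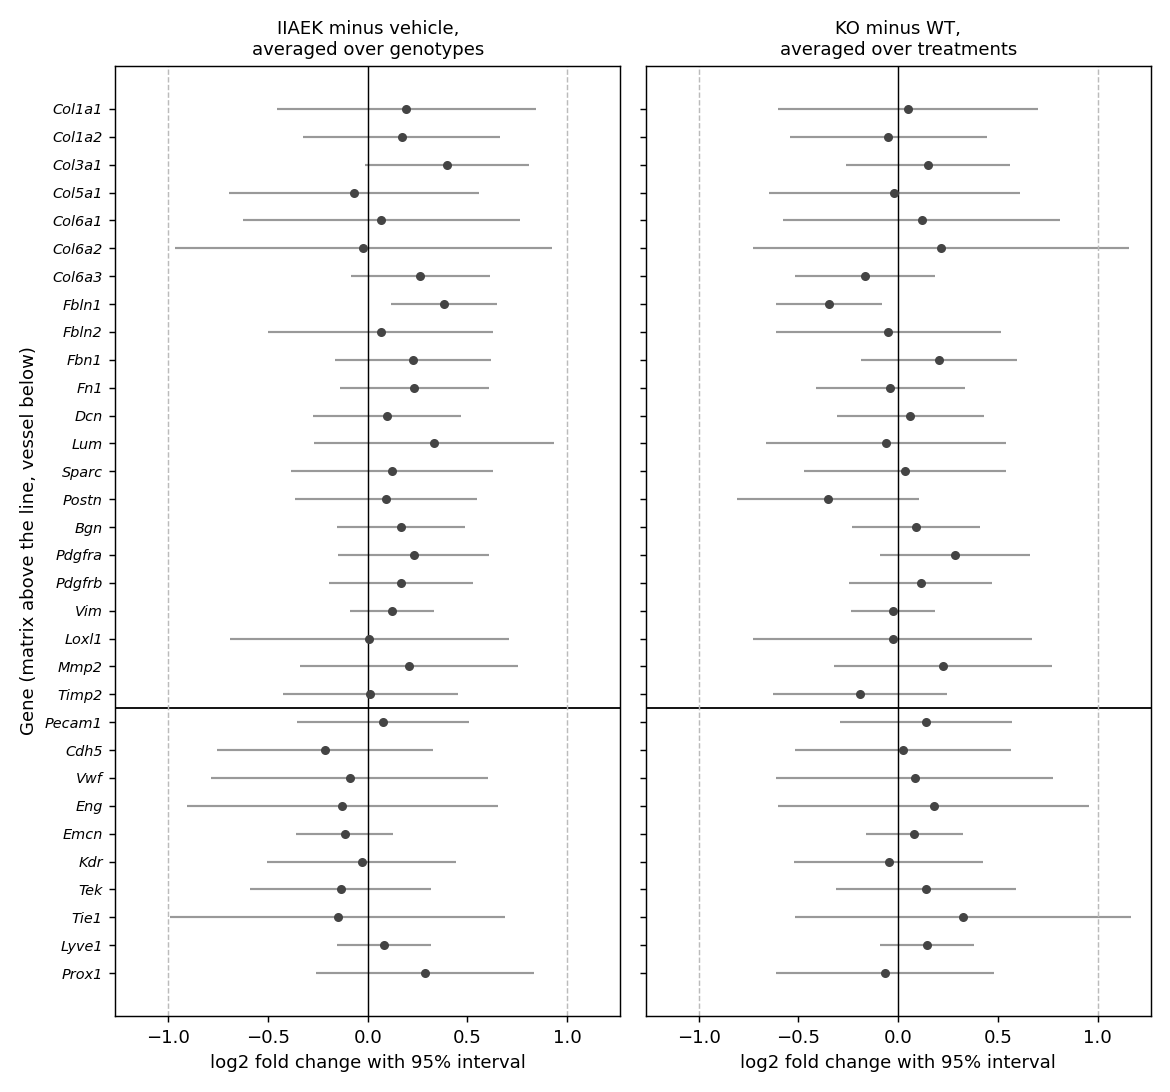
Log2 fold change of each of the 32 tested genes with its 95% interval (limma, 12 arrays), left for IIAEK minus vehicle averaged over genotypes and right for KO minus WT averaged over treatments. Dashed lines mark 2-fold; 31 of 32 intervals on the left include 0, and the exception is Fbln1, which is also the exception on the right.

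Among the 7 collagens, Col1a1 and Col1a2 encode the chains of collagen I, Col3a1 the chain of collagen III, Col5a1 a chain of collagen V, which starts collagen I fibrils, and Col6a1, Col6a2 and Col6a3 the chains of the beaded filaments of collagen VI. Col6a1 and Col6a2 both lie on the minus strand of chromosome 10. Both genes and Col1a2 had their highest level on KO IIAEK array 3 and their lowest on KO IIAEK array 1. So did Col1a1, Col5a1, Sparc, Loxl1, Mmp2 and Timp2. The 250 bases before the starts of Col6a1, Col6a2 and Col1a2 are printed as examples of genes with these extremes. They come from RefSeq, build GRCm38.p6, read 5′ to 3′ on the strand of the gene, with GGGCGG (or its reverse complement CCGCCC) and CCAAT in capitals. The Col6a1 window is chr10:76726045-76726294 (minus strand), the Col6a2 window chr10:76623405-76623654 (minus strand) and the Col1a2 window chr6:4505368-4505617 (plus strand).
Col6a1: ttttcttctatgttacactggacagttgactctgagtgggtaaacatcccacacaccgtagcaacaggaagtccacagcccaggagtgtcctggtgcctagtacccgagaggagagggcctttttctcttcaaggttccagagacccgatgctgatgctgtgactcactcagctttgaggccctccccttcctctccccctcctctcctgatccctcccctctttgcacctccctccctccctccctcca
Col6a2: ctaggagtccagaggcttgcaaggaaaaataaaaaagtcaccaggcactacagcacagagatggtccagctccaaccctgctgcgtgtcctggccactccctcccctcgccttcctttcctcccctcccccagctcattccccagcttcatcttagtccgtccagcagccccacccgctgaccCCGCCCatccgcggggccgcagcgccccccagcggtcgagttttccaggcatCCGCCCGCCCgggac
Col1a2: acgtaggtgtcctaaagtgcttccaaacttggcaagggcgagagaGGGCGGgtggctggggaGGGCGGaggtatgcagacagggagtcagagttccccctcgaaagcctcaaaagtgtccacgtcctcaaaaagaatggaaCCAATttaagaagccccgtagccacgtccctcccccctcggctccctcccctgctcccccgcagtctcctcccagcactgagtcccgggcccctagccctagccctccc
The Col6a2 window held 3 GGGCGG matches, 2 of them overlapping, the Col1a2 window 2 of them and 1 CCAAT, and the Col6a1 window neither.

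Col1a1 stood at 0.31, 0.99 and 2.42 in KO IIAEK, 1.29, 0.82 and 1.04 in KO vehicle, 1.19, 0.91 and 1.49 in WT IIAEK, and 1.16, 1.15 and 0.68 in WT vehicle. The highest and the lowest of its 12 levels were KO IIAEK arrays 3 and 1, and the other 10 arrays lay between 0.68 and 1.49. Col6a1 repeated those extremes, with 1.94, 2.77 and 4.18 in KO IIAEK, 2.69, 2.89 and 2.90 in KO vehicle, 2.92, 2.24 and 3.17 in WT IIAEK, and 2.64, 2.62 and 3.06 in WT vehicle. Col6a2 did so more widely, with -1.81, -1.01 and 1.05 in KO IIAEK, -0.99, -0.19 and -0.40 in KO vehicle, -0.80, -1.39 and -0.10 in WT IIAEK, and -1.17, -0.89 and -0.29 in WT vehicle. For all 3 collagens the KO IIAEK arrays lay on both sides of every other group, and the groups overlapped. The IIAEK difference in KO was 0.19 for Col1a1 (SE 0.42), 0.13 for Col6a1 (SE 0.45) and -0.06 for Col6a2 (SE 0.61).

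The slides gave opposite signs for these collagens. Within slide 2, where KO IIAEK array 3 stood against 2 KO vehicle arrays, the 3 genes were called higher under IIAEK, by 1.49 for Col1a1 (SE 0.19, limma adjusted p = 0.0325), 1.28 for Col6a1 (SE 0.18, adjusted p = 0.0379) and 1.35 for Col6a2 (SE 0.21, adjusted p = 0.0486). There 0.977% of all features were called in either direction, and 0.594% were called higher. At an unadjusted p under 0.05, 21 of the 32 genes passed within slide 2, against 22.8% of all features. Within slide 1, where 2 KO IIAEK arrays stood against 1 KO vehicle array, the differences were -0.64, -0.34 and -0.42, and none of the 3 passed (0.222% of all features were called). Outside slide 2 the adjusted p of the 3 genes in this comparison ran from 0.755 to 0.999995 over the alternatives run. The calls rest on 1 KO IIAEK array. Their SEs come from the gap between the 2 KO vehicle arrays and from the spread typical of all features. They do not measure the spread within KO IIAEK, so no effect of IIAEK is concluded from these calls. The difference between the slides in the IIAEK effect was not tested. On slide 2 the KO IIAEK array was high in the stomach and Brunner gland markers, and both KO vehicle arrays were low. On slide 1 both KO IIAEK arrays were low and the KO vehicle array was high. The part of stomach-type tissue in these collagen differences was not tested. Col5a1 followed the same arrays, with -1.39, -0.51 and 0.62 in KO IIAEK, -0.22, -0.36 and -0.55 in KO vehicle, -0.24, -0.87 and -0.17 in WT IIAEK, and -0.23, -0.15 and -0.63 in WT vehicle. Its IIAEK difference in KO was 1.08 within slide 2 and -0.73 within slide 1, and neither passed.

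Col3a1, of collagen III, had the largest IIAEK difference of the collagens. Its levels were 3.32, 3.34 and 3.90 in KO IIAEK, 3.48, 2.74 and 3.52 in KO vehicle, 3.54, 3.68 and 3.27 in WT IIAEK, and 3.17, 3.24 and 2.51 in WT vehicle. All WT IIAEK arrays lay above all WT vehicle arrays, whereas the KO groups overlapped. Non-overlap in that direction held for 2 of 22 matrix genes, Col3a1 and Fbln1, and for 5.58% of all features. Averaged over the genotypes the log2 difference was 0.40 (SE 0.19, 95% interval -0.02 to 0.81) and did not pass. It was 0.76 within slide 2 and 0.13 within slide 1. Of the remaining collagens, Col1a2 spanned 3.25 to 4.78 and Col6a3 0.996 to 1.997. Both were highest on KO IIAEK array 3, as were all 7 collagens.

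Of the matrix genes, 9 encode glycoproteins and proteoglycans. Fbln1 encodes fibulin-1, a glycoprotein of elastic and basement membrane matrix, and had the smallest unadjusted p of the 32 genes. Its levels were 2.53, 2.68 and 3.19 in KO IIAEK, 2.36, 2.53 and 2.57 in KO vehicle, 3.28, 3.13 and 3.22 in WT IIAEK, and 2.60, 2.92 and 2.77 in WT vehicle. The 3 WT IIAEK arrays lay close together and above every WT vehicle array, while KO IIAEK array 3 reached them and the other KO arrays lay at or below 2.68. Group means were 2.80 ± 0.35 in KO IIAEK, 2.48 ± 0.11 in KO vehicle, 3.21 ± 0.08 in WT IIAEK and 2.76 ± 0.16 in WT vehicle (SD, n = 3 each). The IIAEK difference averaged over the genotypes was 0.38 (SE 0.12, limma adjusted p = 0.99998). It was 0.55 within slide 2, 0.35 within slide 1 and 0.28 without KO IIAEK array 3. The sign of this difference for Fbln1 was therefore the same on both slides, although it did not pass the adjusted threshold.

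Fbln1 was also the 1 member with an unadjusted p under 0.05 for KO against WT averaged over the treatments. That difference was -0.34 (SE 0.12, limma adjusted p = 0.999). Under vehicle all 3 KO arrays lay below all 3 WT arrays, with a difference of -0.28 (SE 0.17). That order held for 2 of 22 matrix genes, Fbln1 and Timp2, and for 5.87% of all features. Under IIAEK it was -0.41 (SE 0.17), with KO IIAEK array 3 inside the WT range. Averaged over the treatments, it was -0.13 within slide 2 and -0.50 within slide 1. The IIAEK effect on Fbln1 in KO minus that in WT was -0.13 (95% interval -0.66 to 0.40).

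Lum encodes lumican, a proteoglycan that regulates collagen fibril width. It measured 2.69, 1.58 and 1.81 in KO IIAEK, 1.39, 1.90 and 1.90 in KO vehicle, 1.80, 2.66 and 1.91 in WT IIAEK, and 2.29, 2.06 and 0.92 in WT vehicle. The highest were KO IIAEK array 1 and WT IIAEK array 2, and WT vehicle array 3 was the lowest. The groups overlapped, and the IIAEK difference averaged over the genotypes was 0.33 (SE 0.27). Dcn, which encodes decorin, spanned only 5.77 to 6.72 and had its maximum on KO IIAEK array 1 too. Bgn, which encodes biglycan, lay higher on all KO IIAEK arrays, at -1.13, -1.64 and -1.37, than on all KO vehicle arrays, at -1.73, -1.95 and -1.70. It was the 1 matrix gene with that order, which 1.98% of all features had, and its difference of 0.42 (SE 0.21) did not pass.

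Sparc encodes osteonectin, a collagen-binding protein of matrix-forming cells. Its brightest probe gave 3.85, 4.57 and 5.51 in KO IIAEK, 4.67, 4.49 and 4.31 in KO vehicle, 4.57, 4.48 and 4.68 in WT IIAEK, and 4.57, 4.68 and 4.21 in WT vehicle. KO IIAEK array 3 was highest and array 1 lowest, and the other 10 arrays spanned 4.21 to 4.68. The IIAEK difference in KO was 0.16 (SE 0.33), with 1.11 within slide 2 and -0.46 within slide 1, neither of which passed. Fbln2, Fbn1, Fn1 and Postn, which encode fibulin-2, fibrillin-1, fibronectin and periostin, had IIAEK differences averaged over the genotypes of 0.07, 0.23, 0.23 and 0.09. Postn was the member furthest below WT in KO averaged over the treatments, at -0.35 (SE 0.21, 95% interval -0.81 to 0.10).

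**Figure D3:**
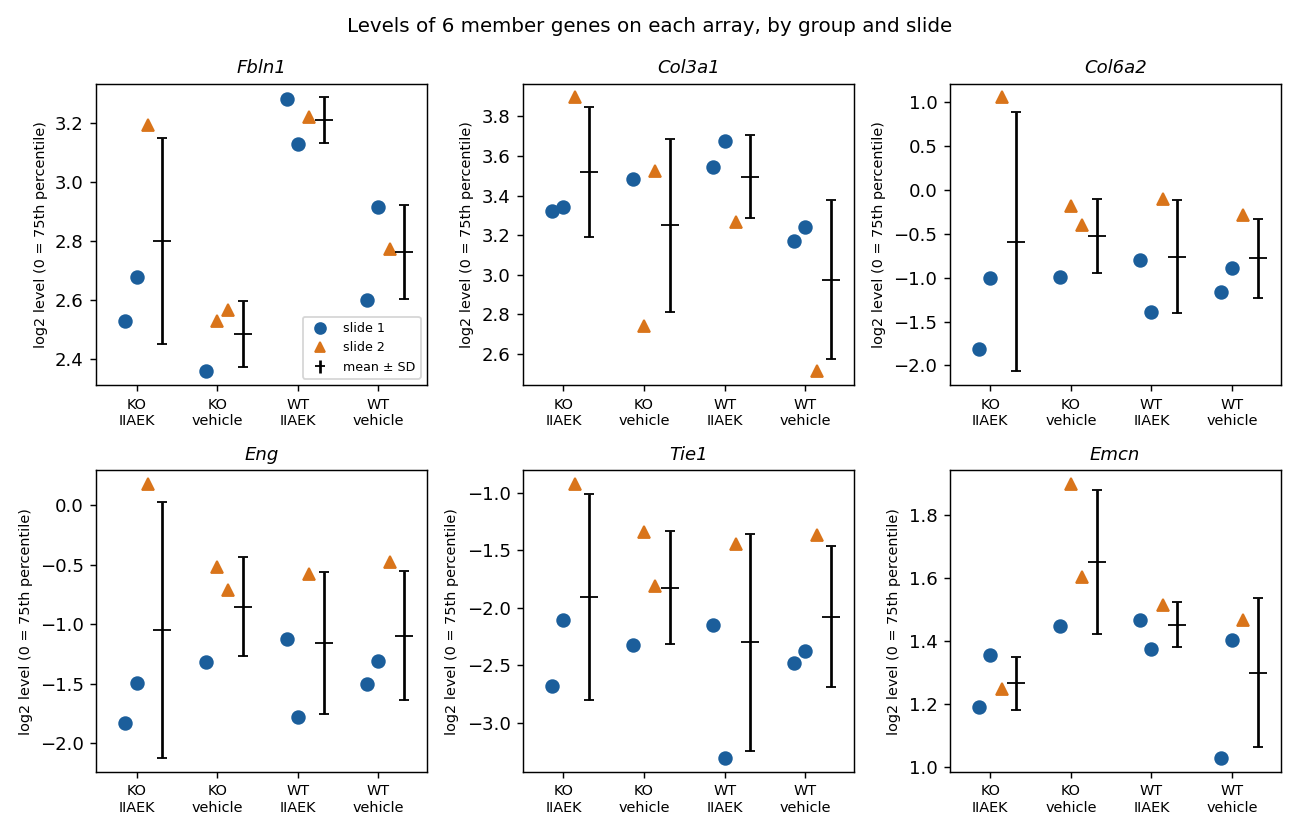
Log2 level (0 is the array's 75th percentile) of Fbln1, Col3a1, Col6a2, Eng, Tie1 and Emcn on each array, by group from KO IIAEK to WT vehicle, with circles for slide 1, triangles for slide 2 and the mean ± SD of 3 arrays as bars. For Col6a2, Eng and Tie1 every triangle lies above every circle, while Fbln1, Col3a1 and Emcn show no such order.

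Pdgfra, the PDGF receptor of villus fibroblasts, measured 1.06, 1.75 and 2.09 in KO IIAEK, 1.44, 1.28 and 1.37 in KO vehicle, 1.58, 1.25 and 1.11 in WT IIAEK, and 1.25, 1.29 and 0.82 in WT vehicle. KO IIAEK arrays 3 and 2 were the highest of the 12, and KO IIAEK array 1 was the second lowest, so that the KO and WT arrays overlapped. The KO difference averaged over the treatments was 0.28 (SE 0.17, 95% interval -0.09 to 0.66), with 0.74 within slide 2 and 0.08 within slide 1. Pdgfrb, the PDGF receptor of pericytes and other mural cells, had a KO difference of 0.11 and an IIAEK difference of 0.17. Vim, the intermediate filament protein vimentin of mesenchymal cells, had the narrowest intervals of the matrix genes. Its IIAEK difference was 0.12 (95% interval -0.09 to 0.33) and its KO difference -0.03 (95% interval -0.24 to 0.18). The 6 pericyte markers had mean levels of 0.17 to 0.75 in KO IIAEK, 0.05 to 0.28 in KO vehicle, 0.22 to 0.35 in WT IIAEK and 0.33 to 0.43 in WT vehicle.

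The 3 genes of crosslinking and turnover were Loxl1, Mmp2 and Timp2. Loxl1, a lysyl oxidase of elastic fibres, measured -2.80, -2.28 and -0.64 in KO IIAEK, -2.13, -1.58 and -1.92 in KO vehicle, -1.78, -2.33 and -1.42 in WT IIAEK, and -1.78, -1.90 and -1.98 in WT vehicle. KO IIAEK array 3 was the highest and KO IIAEK array 1 the lowest, and the groups overlapped. Mmp2, the gelatinase of fibroblasts, gave -1.34, -0.65 and 0.33 in KO IIAEK, -1.06, -0.66 and -0.65 in KO vehicle, -0.56, -1.25 and -0.60 in WT IIAEK, and -1.09, -0.87 and -1.001 in WT vehicle. Again KO IIAEK arrays 3 and 1 were the extremes, and the IIAEK difference averaged over the genotypes was 0.21 (SE 0.25).

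Timp2, the inhibitor that also binds pro-MMP2, gave 2.42, 3.14 and 3.74 in KO IIAEK, 2.70, 3.06 and 2.89 in KO vehicle, 3.29, 2.71 and 3.26 in WT IIAEK, and 3.30, 3.19 and 3.34 in WT vehicle. Under vehicle all KO arrays lay below all WT arrays, while under IIAEK the genotypes overlapped. The KO difference under vehicle was -0.39 (SE 0.28, 95% interval -1.01 to 0.23), with -0.36 within slide 2 and -0.54 within slide 1. A second, dimmer probe of Timp2 gave a difference of -0.06 in the same comparison, so the 2 probes disagreed in size.

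Among the vessel genes, Pecam1, Cdh5, Vwf, Eng and Emcn mark the endothelial surface and junctions. Emcn encodes endomucin, a sialomucin of capillary and venous endothelium, and gave the smallest unadjusted p among vessel genes. It measured 1.19, 1.36 and 1.25 in KO IIAEK, 1.45, 1.90 and 1.60 in KO vehicle, 1.47, 1.37 and 1.51 in WT IIAEK, and 1.03, 1.40 and 1.47 in WT vehicle. Every KO IIAEK array lay below every KO vehicle array and below every WT IIAEK array, narrowly in the second case. The first order held for 1 of 10 vessel genes and 2.7% of all features, and the second for 1 of 10 and 2.19%. Group means were 1.27 ± 0.08 in KO IIAEK, 1.65 ± 0.23 in KO vehicle, 1.45 ± 0.07 in WT IIAEK and 1.30 ± 0.24 in WT vehicle (SD, n = 3 each). The IIAEK difference in KO was -0.38 (SE 0.16, limma adjusted p = 0.99992), and in WT it was 0.15 (SE 0.16). The difference between the genotypes in that effect was -0.54 (SE 0.22, limma adjusted p = 0.999992).

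Emcn had the same sign of IIAEK difference in KO on both slides, -0.50 within slide 2 and -0.17 within slide 1, and -0.38 without KO IIAEK array 3. None of these passed the adjusted threshold. Under vehicle its level in KO exceeded that in WT by 0.35 (SE 0.16, limma adjusted p = 0.993), with the arrays overlapping. Emcn did not follow KO IIAEK array 3 upward as most vessel genes did.

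Eng encodes endoglin, a TGF-beta co-receptor of endothelium. It measured -1.83, -1.49 and 0.18 in KO IIAEK, -1.32, -0.52 and -0.72 in KO vehicle, -1.12, -1.78 and -0.58 in WT IIAEK, and -1.50, -1.31 and -0.48 in WT vehicle. Vwf, which encodes the clotting protein von Willebrand factor, gave -0.42, 0.33 and 1.49 in KO IIAEK, 0.17, 0.66 and 0.46 in KO vehicle, 0.50, -0.38 and 0.66 in WT IIAEK, and 0.12, 0.22 and 1.08 in WT vehicle. For both, KO IIAEK arrays 3 and 1 were the highest and the lowest. Their IIAEK differences in KO were -0.20 for Eng (SE 0.50) and 0.03 for Vwf (SE 0.45). Within slide 2 they were 0.80 and 0.93, and within slide 1 -0.34 and -0.22, with none past the threshold. Pecam1 spanned -2.72 to -1.60 and Cdh5, which encodes VE-cadherin, -1.98 to -0.48, and both were highest on KO IIAEK array 3.

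The vascular receptors are Kdr, the main VEGF receptor of blood vessels, Tek, the angiopoietin receptor TIE2, and Tie1, its partner. The 250 bases before the start of Tie1 (chr4:118489850-118490099, minus strand, RefSeq GRCm38.p6) are printed because it had the largest slide difference of the vessel genes. Capitals mark CGGAAG, a core to which ETS factors, a family active in endothelium, can bind.
Tie1: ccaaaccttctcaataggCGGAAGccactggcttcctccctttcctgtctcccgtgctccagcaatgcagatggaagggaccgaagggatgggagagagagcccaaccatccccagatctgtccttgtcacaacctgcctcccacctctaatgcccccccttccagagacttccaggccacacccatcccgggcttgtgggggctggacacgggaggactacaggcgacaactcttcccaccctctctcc
Kdr measured -0.20, 0.49 and 1.31 in KO IIAEK, 0.55, 0.59 and 0.59 in KO vehicle, 0.93, 0.34 and 0.51 in WT IIAEK, and 0.53, 0.55 and 0.75 in WT vehicle. Away from KO IIAEK arrays 3 and 1, its levels stayed within 0.34 to 0.93, and its IIAEK and KO differences averaged over the other factor were -0.03 and -0.05. Tek gave -3.17, -2.74 and -1.91 in KO IIAEK, -2.62, -2.06 and -2.33 in KO vehicle, -2.42, -2.75 and -2.66 in WT IIAEK, and -2.81, -2.47 and -2.55 in WT vehicle. Its KO difference under vehicle was 0.27 (SE 0.29, 95% interval -0.36 to 0.91), with 0.36 within slide 2 and 0.02 within slide 1. Tie1 gave -2.68, -2.10 and -0.92 in KO IIAEK, -2.33, -1.34 and -1.81 in KO vehicle, -2.15, -3.31 and -1.44 in WT IIAEK, and -2.48, -2.38 and -1.37 in WT vehicle. WT IIAEK array 2 was the lowest for Tie1, and its KO difference averaged over the treatments was 0.32 (SE 0.38), with 0.13 once the slide was a block.

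Lyve1, a hyaluronan receptor of lymphatic endothelium and some macrophages, measured -0.27, -0.22 and -0.51 in KO IIAEK, -0.52, -0.43 and -0.35 in KO vehicle, -0.39, -0.35 and -0.75 in WT IIAEK, and -0.66, -0.50 and -0.52 in WT vehicle. KO IIAEK array 3 lay inside the range of the other arrays for Lyve1, and the groups overlapped. The KO difference averaged over the treatments was 0.15 (SE 0.11, 95% interval -0.09 to 0.38), the same sign within slide 2 (0.19) and slide 1 (0.09). Prox1, the transcription factor that sets lymphatic identity, is also made by some epithelial and endocrine cells of the gut. It gave -4.37, -4.03 and -3.84 in KO IIAEK, -4.31, -3.95 and -5.37 in KO vehicle, -4.18, -4.31 and -4.08 in WT IIAEK, and -4.59, -3.92 and -4.40 in WT vehicle. KO vehicle array 3 was the lowest by a wide margin, and 3 of the 12 arrays were not well above background for this probe. The IIAEK difference of Prox1 in KO was 0.46 (SE 0.35, 95% interval -0.31 to 1.23).

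More of these genes, as of all features, were called between the slides than between any groups. The slide comparison was added after the data had been seen. With group means held, 8 of the 32 genes were called higher on slide 2 than on slide 1 and none lower (limma, adjusted over 26107 features): 4 of 22 matrix genes and 4 of 10 vessel genes. Over all features 26.3% were called, 12.7% higher and 13.6% lower. The share of the 32 genes called in either direction was thus close to that of all features. The slide of an array and the tissue hybridised to it cannot be told apart here, since each sample lies on 1 slide. The median log2 difference was 0.20 for matrix genes and 0.39 for vessel genes, against -0.03 over all features. Col6a2 lay at -0.40 to 1.05 on slide 2 and -1.81 to -0.80 on slide 1, Eng at -0.72 to 0.18 on slide 2 and -1.83 to -1.12 on slide 1, and Tie1 at -1.81 to -0.92 on slide 2 and -3.31 to -2.10 on slide 1. No array of one slide reached the range of the other for these 3 genes, nor for Fbln2 and Cdh5. Complete separation with slide 2 higher held for 2 of 22 matrix and 3 of 10 vessel genes, and for 7.17% of all features. With slide 2 lower it held for no member and for 5.67% of all features.

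The slide differences of the 4 matrix genes called were 1.22 for Col6a2 (SE 0.28, adjusted p = 0.0119 by limma), 0.82 for Fbln2 (SE 0.11), 0.76 for Col6a1 (SE 0.25) and 0.46 for Fbn1 (SE 0.12). Among vessel genes they were 1.14 for Tie1 (SE 0.22), 1.09 for Eng (SE 0.19), 0.86 for Vwf (SE 0.22) and 0.64 for Cdh5 (SE 0.18). Genes at the other end were Lum (-0.35), Col3a1 (-0.20), Dcn (-0.14) and Lyve1 (-0.11), none of which was called. The endothelial genes also split, since Emcn (0.16), Kdr (0.32) and Tek (0.37) had smaller differences than Tie1 and were not called. Without KO IIAEK array 3, 2 matrix and 2 vessel genes were called, and the medians were -0.02 and 0.21. Without WT vehicle array 3, 3 matrix and 2 vessel genes were called. Calls over all 26107 features fell too: 1898 were higher on slide 2 without KO IIAEK array 3 and 2410 without WT vehicle array 3. With all arrays, 3325 were. Without KO vehicle array 1, Dcn was called lower on slide 2, by -0.40 on the log2 scale (SE 0.13, limma adjusted p = 0.0413). In that fit 3893 of all 26107 features were called lower.

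Markers of other tissues differed by slide as well. Of 6 adipocyte markers tested (Plin1 did not pass the filter), 4 were called higher on slide 2, against 12.7% of all features, with a median difference of 1.001. Their mean level ran from -0.31 to 0.98 in KO IIAEK, -0.79 to 0.69 in KO vehicle, -0.15 to 0.99 in WT IIAEK and -1.27 to 1.07 in WT vehicle. Of the 12 smooth muscle markers 4 were called higher on slide 2, with a median of 0.57. No pericyte, stomach and Brunner gland or pancreas marker was called, though the medians of the last 2 lists were 2.55 and 1.27. The part of these tissues in the slide difference of the matrix and vessel genes was not tested.

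**Figure D4:**
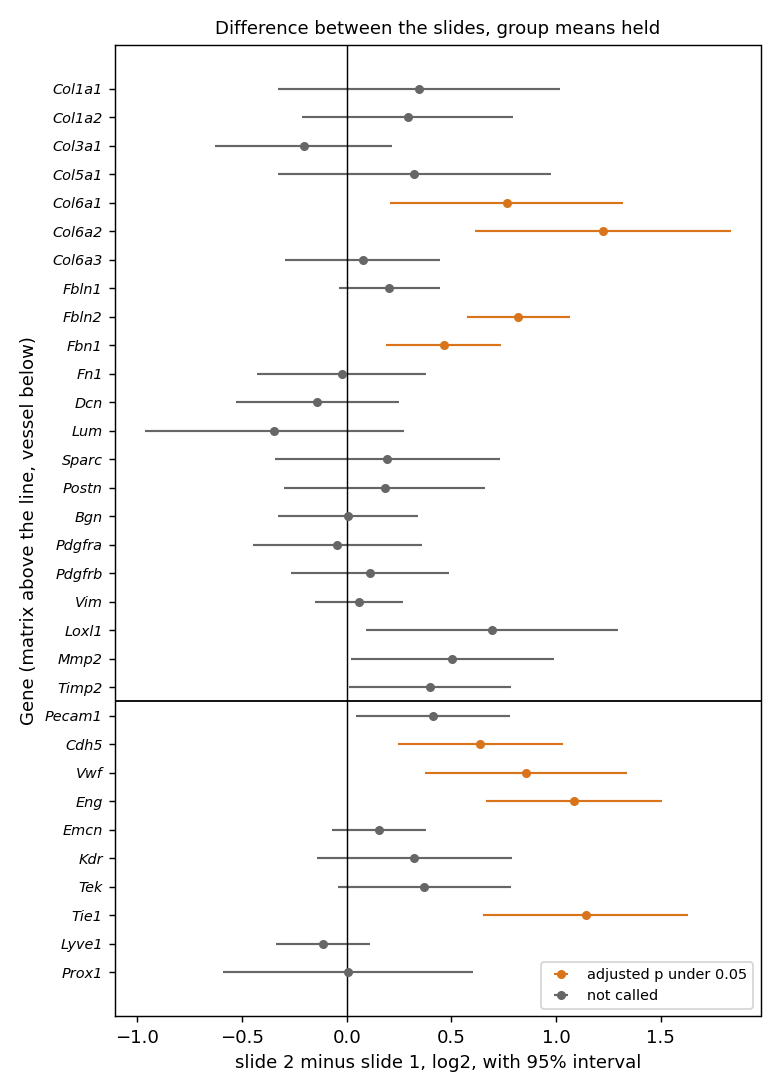
Log2 difference between slide 2 and slide 1 for each of the 32 tested genes with its 95% interval, with the 4 group means held. Orange points are the 8 genes with an adjusted p under 0.05, from Fbn1 at 0.46 to Col6a2 at 1.22, and all 8 are higher on slide 2.

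Other probes of the member genes were read where the array had them. Both Col1a1 probes and all 3 Postn probes gave IIAEK and KO differences, averaged over the other factor, that matched in sign. A second probe of Sparc lay at 1.81 to 3.49 on slide 2 and 1.06 to 1.66 on slide 1, and was called higher on slide 2 (SE of the difference 0.24, adjusted p = 0.0146 by limma over probes), while its brightest probe gave a slide difference of 0.19 and was not called. The second probe of Fbn1 gave a slide difference of 0.22, not called, against 0.46 for the brightest. Under vehicle, the 2 dimmer Fn1 probes gave KO differences of -0.67 and -0.94, against -0.07 for the brightest. For Col6a3 the second probe gave -0.62 in that comparison, against -0.13 for the brightest. A gene-level value for Sparc, Fn1, Col6a3 or Timp2 thus depended on the probe.

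Further genes of the same pathways were counted from 7 lists. None of their members was called in any of the 7 comparisons. Between the slides, 5 of 29 other matrix, 4 of 14 collagen processing and 1 of 9 matrix turnover genes were called higher on slide 2. So were 2 of 10 TGF-beta and PDGF signalling, 6 of 20 other endothelial, 0 of 5 other lymphatic and 4 of 9 vessel growth factor genes. The share over all features was 12.7%, and no member of these lists was called lower. Of 30 other matrix genes, 29 were tested (Fmod did not pass the filter). Their IIAEK difference averaged over the genotypes had a median of 0.17, with 21 of 29 above 0, and 4 of 29 were higher at an unadjusted p under 0.05, against 1.2% of all features. The 2 with the smallest p were Efemp1, which encodes fibulin-3, and Aspn, which encodes the proteoglycan asporin. Efemp1 measured 1.85, 1.93 and 2.03 in KO IIAEK, 1.42, 1.74 and 1.72 in KO vehicle, 2.02, 2.14 and 1.65 in WT IIAEK, and 1.28, 1.50 and 1.15 in WT vehicle. All IIAEK arrays lay above all vehicle arrays of the same genotype, an order that 1.98% of all features had in KO and 5.58% in WT. Efemp1 was named by its small p in this comparison, so that order was favoured by the selection. The averaged difference was 0.46 (SE 0.12, limma adjusted p = 0.99998). Aspn had a difference of 0.50 (SE 0.14).

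Collagen processing genes (14 of 14 tested) had a median IIAEK difference of 0.0006, averaged over the genotypes. The 2 named by smallest p were Bmp1, the procollagen C-proteinase, at 0.35 (SE 0.16) for IIAEK in WT (0.20 without WT IIAEK array 1), and Lox, a lysyl oxidase, at -0.54 (SE 0.28) for KO under vehicle. Among 9 matrix turnover genes, Mmp3, the stromelysin of fibroblasts, gave -2.32, -3.21 and -2.35 in KO IIAEK, -0.61, -0.99 and -2.71 in KO vehicle, -2.29, -2.90 and -2.20 in WT IIAEK, and -1.28, -1.63 and -1.83 in WT vehicle. KO vehicle array 3 lay among the IIAEK arrays, and the averaged IIAEK difference was -1.04 (SE 0.33, limma adjusted p = 0.99998). Ctsk, which encodes the collagen-cutting protease cathepsin K, differed by 0.38 (SE 0.18) for KO under vehicle, and by 0.19 without WT vehicle array 3. Among 10 TGF-beta and PDGF signalling genes, Pdgfd, a ligand of the beta receptor, was well above background on 0 of 3 KO IIAEK arrays and on 3 of 3 KO vehicle arrays. It passed the filter only through KO vehicle, where its mean level was highest, and was named by its small p. The direction of its difference was thus favoured by the selection and gives no support for an effect. Its level in KO IIAEK is only a bound, which put the mean of these arrays at least 1.59-fold lower. The bound itself was not tested. The measured log2 difference was -1.19 and did not pass (limma adjusted p = 0.99992). That bound sets the KO vehicle mean against the lowest signal well above background on each KO IIAEK array, or the probe's own signal where higher. Pdgfa, a ligand of the alpha receptor, had an IIAEK difference in WT of 0.30 (SE 0.15).

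Of 20 other endothelial genes, all tested, Clec14a, an endothelial lectin, had a KO difference under vehicle of 1.47 (SE 0.44, limma adjusted p = 0.993). Its levels were -3.43, -3.38 and -3.58 in KO IIAEK, -3.89, -3.22 and -3.003 in KO vehicle, -4.45, -3.67 and -3.96 in WT IIAEK, and -4.21, -4.34 and -5.98 in WT vehicle. WT vehicle array 3 was the lowest of all by more than 1 unit and was not well above background. Without it the difference was 0.91. Mcam, an adhesion molecule of endothelium and smooth muscle, differed by 0.42 (SE 0.15) for IIAEK in KO, and by 0.27 without KO vehicle array 2. Of 6 other lymphatic genes 5 were tested (Foxc2 did not pass), and the smallest p was that of Ccl21a, a chemokine of lymphatic endothelium and lymphoid stroma. It measured 2.22, 2.45 and 2.95 in KO IIAEK, 2.62, 3.12 and 2.95 in KO vehicle, 2.51, 2.18 and 2.69 in WT IIAEK, and 3.35, 3.39 and 3.13 in WT vehicle. The averaged IIAEK difference was -0.59 (SE 0.15, limma adjusted p = 0.99998). The 5 B cell markers, all tested, had mean levels of -2.70 to -2.09 in KO IIAEK, -2.63 to -2.11 in KO vehicle, -2.82 to -1.21 in WT IIAEK and -2.73 to 1.72 in WT vehicle, with the highest on WT vehicle arrays 1 and 2, and their part in the Ccl21a difference was not tested. Nrp2, a VEGF-C co-receptor, differed by 0.35 (SE 0.16) for IIAEK in KO.

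Among 9 vessel growth factor genes, Angpt1, the activating ligand of TIE2, had an IIAEK difference in WT of 0.72 (SE 0.34), which was 0.43 without WT vehicle array 3. Vegfa, the ligand of the Kdr receptor, had an IIAEK effect in KO minus that in WT of -0.51 (SE 0.25), which was -0.30 without KO vehicle array 2. Neither of these 2 ligands passed the adjusted threshold.

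A promoter window was listed for 22 of the 33 genes, and 4 motifs were searched in the 250 bases before the start on both strands, overlaps counted. GGGCGG, the GC box, was present for 11 of the 22 genes, Col6a2, Fbln1 and Kdr among them, and in 32.7% of all 32851 windows of that length. CCAAT was present for 3 genes (Col1a2, Timp2 and Vim) and in 33.8% of all windows. TATAAA was present for 4 genes (Col3a1, Postn, Prox1 and Vim) and in 12.4% of all windows. CGGAAG was present for Tie1 alone among the 22, and in 13.6% of all windows. A match describes these letters in this window and shows no binding.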

How the data were processed

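Gene expression was measured on 12 1-colour Agilent arrays of mouse duodenum, 3 per group, each read once by Feature Extraction 10.7.3.1, per the file headers. The values used are the scanner's processed intensities, background-subtracted by that program per the file headers; the design's build is mm9. The authors' deposited value table holds log2 values that correlated with those recomputed here at 0.999996 or more per array, with column medians of -0.09 to 0.12, and how it was centred was not stated. No spot was saturated.

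Of 62976 spots per array, 3671 were controls and were left out, as were spots flagged as outliers by the scanner program (22 of 56605 probes lost every spot). Spots of a probe were averaged, intensities were divided by the array's 75th percentile, and log2 was taken. Probes were named by matching the transcript accession in the files, without its version, to RefSeq (GRCm38.p6): 32978 of 56583 matched. A probe was kept if some group had it well above background in each of its 3 arrays, which 32925 probes met, and the brightest probe stood for a gene, which left 26107 features, 15583 of them named genes. limma 3.58.1 in R 4.3.3 fitted 1 mean per group over all 12 arrays (lmFit, eBayes with trend), with 7 contrasts and Benjamini-Hochberg adjustment over all features. The number of arrays limits the precision.

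The members, gene lists and marker lists were chosen with earlier results of these data known. All members are accounted for; per-array values were given for the members of each role with the smallest p or the widest range, up to 12 matrix and 8 vessel genes, and up to 2 genes per pathway list by smallest p. Per-array values of Kdr, Lyve1 and Prox1 complete their roles. Alternatives covered background correction, normalization, filter, probe choice, slide, replicate number, variance model, the authors' values, tissue marker scores and leaving out each array. Normexp used the median spot intensity, since no mean intensity column was given.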

Additional observations from a re-analysis of the deposited data

How the results depend on the processing

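The 13 alternatives and the 12 fits that each left out 1 array changed no call of a member (0 called) except within slide 2, where 3 members were called for IIAEK in KO. Within slide 2, median log2 differences of matrix and vessel genes were 0.75 and 0.69 for IIAEK in KO, 0.60 and 0.72 for the difference between genotypes, and 0.66 and 0.63 for KO under IIAEK, and the averaged matrix medians were 0.55 for IIAEK and 0.39 for KO. There 21 members passed an unadjusted p of 0.05 for IIAEK in KO. Within slide 1 the matrix median for KO under IIAEK was -0.25. Each slide holds fewer arrays, and the calls within slide 2 rest on 1 KO IIAEK array, whose group spread is not measured there. Within each slide the KO groups also differed in the stomach and Brunner gland markers. With stomach and pancreas marker scores as covariates, the matrix median for KO under vehicle was 0.34, and the cause was not tested. With the smooth muscle score as a covariate, 9 members passed an unadjusted p of 0.05 for KO averaged over treatments, and none passed after adjustment. Leaving out 1 array gave matrix medians of -0.11 to 0.42 for IIAEK in KO, -0.33 to 0.34 for the difference and -0.27 to 0.30 for KO under IIAEK, with vessel medians of -0.46 to 0.27, -0.30 to 0.41 and -0.23 to 0.39. Of 224 estimates (32 genes, 7 comparisons), 81 turned sign within slide 1, 57 within slide 2, 68 without KO IIAEK replicate 3, 32 with the slide as a block, 22 under normexp and 13 under quantile normalization. Leaving out 1 array gave 1766 to 3589 of all 26107 features called higher on slide 2, and quantile normalization gave 3491. Among the members, leaving out 1 array gave 2 to 4 matrix and 2 to 4 vessel genes called higher, and quantile normalization gave 3 and 4. None was called lower except Dcn, without KO vehicle replicate 1 (-0.40, limma adjusted p = 0.0413). Replicate numbers did not pair the arrays in every comparison: deviations of same-numbered arrays correlated above 0.1 in 11 of 18 pairs, among them all 3 of WT IIAEK with WT vehicle and all 3 of KO vehicle with WT vehicle, and 5 of 12 arrays correlated best with an array of their own number. With a replicate block 0 members were called and 0 of 224 estimates turned sign.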

Other observations

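Fat, lymphoid and other tissue varied between arrays beyond the genes described. The 9 pancreas markers had a mean log2 level of 7.50 to 8.33 in KO IIAEK, 6.30 to 8.50 in KO vehicle, 7.28 to 8.58 in WT IIAEK and 1.31 to 8.19 in WT vehicle, with the lowest on WT vehicle array 1. Of 6 mesothelium markers, 2 were tested, since Upk3b, Wt1, Lrrn4 and Bnc1 did not pass the filter, and the mean of these 2 ran from -0.85 to 0.27 in KO IIAEK, -1.99 to 0.36 in KO vehicle, -1.18 to 0.14 in WT IIAEK and -0.82 to -0.60 in WT vehicle. The 4 T cell markers had means of 2.14 to 2.37 in KO IIAEK, 2.08 to 2.53 in KO vehicle, 1.73 to 2.27 in WT IIAEK and 1.71 to 2.28 in WT vehicle. None of these markers was called in any comparison between groups.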
